A study of Mus musculus with 6 samples.

Results

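Histone cluster genes were followed in RNA from 6 subcutaneous tumours of DU145 cells, a human prostate cancer line, grown in male nude mice, which lack a thymus and so lack mature T cells. The members are all rows of the human gene table whose symbol has the form HIST, a cluster digit from 1 to 4 and the letter H, which gave 89 of 59458 rows. They were chosen by symbol alone, with no measured value in the rule. By symbol, 6 members fell in the linker histone H1 class, 17 in H2A, 22 in H2B, 14 in H3 and 15 in H4. The other 15 carried pseudogene names. Another 4 symbols, kept here in H2B, are also listed as pseudogenes by nomenclature. The 3 Zelnorm tumours (MBZ_254, MBZ_257 and MBZ_259) came from mice given Zelnorm by mouth every day. Zelnorm is tegaserod, which activates the serotonin receptor HTR4. The 3 control tumours (NC10, NC4 and NC9) are labelled control, with no vehicle named. Both groups share the cell line, the nude host, its sex and the subcutaneous site, and they rest on 1 cell line. The titles call the treated group MBZ while the treatment label gives Zelnorm, and the meaning of MBZ, the dose and the age of the mice are not stated in those labels. The labels list 6 separate tumours and name no animals, so p-values measure only the spread between these samples.

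Core histones H2A, H2B, H3 and H4 form the protein spool on which DNA is wrapped, and H1 binds the DNA that enters and leaves it. Most genes in the histone clusters are switched on when DNA is copied in S phase. Their mRNAs end in a stem-loop, bound by SLBP, in place of a poly(A) tail. Some members can also give polyadenylated transcripts. Many histone genes outside the clusters, such as H3F3B and H1F0, are polyadenylated and are made throughout the cell cycle, but this does not hold for all of them. The libraries were built from total RNA with an Illumina TruSeq RNA kit per the labels, and the labels do not state whether poly(A) RNA was selected. Selection of poly(A) RNA would leave most stem-loop histone mRNAs out of a library.

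The human table held 24495364 to 39102850 counts per library over its named genes, so a gene with no counts in a library was below 0.0753 to 0.122 CPM, a count scaled to a library of 1000000, at a floor of 3 counts. That floor, and the intervals given further on, cover counting error only. Of the 6 genes listed as DU145 markers all were measured, with a summed level of 5605, 5048 and 5722 CPM in Zelnorm tumours, against 4942, 5650 and 4488 CPM in control tumours. KLK3, a product of the normal prostate, reached at most 0.0759 CPM. The leukocyte gene PTPRC had 0.556 to 1.20 CPM and the T cell gene CD3E at most 0.0407 CPM. Genes of connective tissue and muscle were also counted in the human table. COL1A1, COL3A1, PDGFRB and PECAM1, which mark fibroblasts and vessels, summed to 974, 266 and 726 CPM in Zelnorm tumours, against 622, 1241 and 618 CPM in control tumours. ACTA1, MYH1, ADIPOQ and PLIN1, which mark muscle and fat, summed to 1.57, 1.10 and 153 CPM in Zelnorm tumours, against 6.52, 80.2 and 57.1 CPM in control tumours. PDGFRB and PECAM1 reached at most 3.01 and 3.36 CPM, so the first sum was mostly COL1A1 and COL3A1. PLIN1 and ADIPOQ reached at most 0.541 and 0.0494 CPM, so high values of the second sum came from the muscle genes ACTA1 and MYH1. The part of all these genes in the values given here was not tested. In a bulk tumour, fewer cells of a type and less RNA per cell cannot be told apart.

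Histone cluster transcripts were a small share of the human RNA, and no member passed the test between Zelnorm and control tumours. Summed over all 89 members, the level was 2039, 2492 and 2262 CPM in Zelnorm tumours, against 2163, 2363 and 2003 CPM in control tumours. MBZ_257 was the highest tumour and NC9 the lowest, and the groups overlapped. The mean was 2264 ± 227 CPM in Zelnorm tumours and 2176 ± 181 CPM in control tumours (SD, n = 3 each), a log2 ratio of 0.06. Without MBZ_257 the log2 ratio was -0.015, so its sign rested on that library. As a share of all named human counts, the members took 0.205% in MBZ_254, with a 95% Wilson interval of 0.203% to 0.206%. They took 0.248% in MBZ_257, with an interval of 0.246% to 0.249%, and 0.204% in NC9.

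A few genes carried most of this RNA. The 5 members with the most counts held 53.0% of all member counts, the top 10 held 79.7% and the top 20 held 96.9%. The 59 members whose mean lay under 1 CPM together made up 9.25 to 12.4 CPM in a library. Of the 89 members, 15 had no count in any library and 41 had fewer than 30 counts over all libraries. The low members included genes that are typical of the S-phase supply, such as HIST1H4C, with 8, 9 and 3 counts in Zelnorm tumours, against 1, 3 and 5 counts in control tumours.

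**Figure D1:**
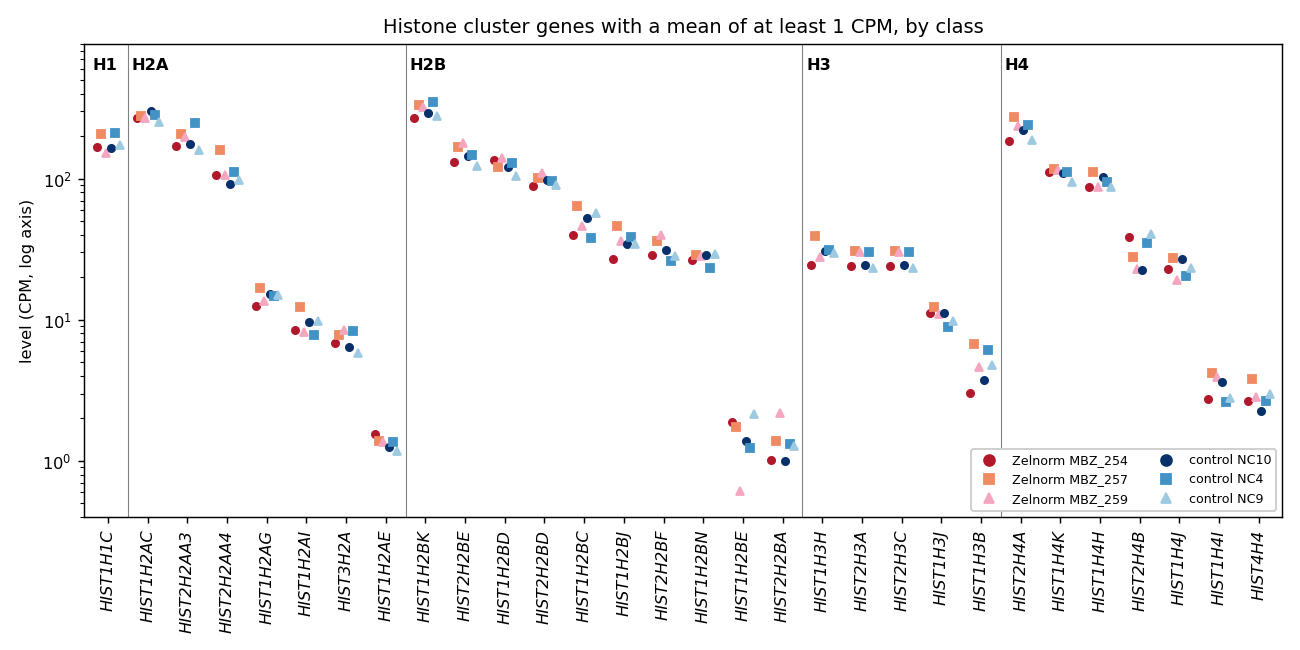
Level of the 30 tested members with a mean of at least 1 CPM, grouped by histone class, in CPM on a log10 axis. Each tumour has 1 point per gene, with Zelnorm tumours left of control tumours. Within most genes shown the points of both groups lie close together, as for HIST1H2BK at 270 to 333 CPM in Zelnorm tumours and 277 to 352 CPM in control tumours.

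After a filter on low counts, 42 members were tested among 18820 human genes, 3 of class H1, 9 of H2A, 15 of H2B, 8 of H3 and 7 of H4. The quasi-likelihood test of edgeR called 0 of the 42 members at an adjusted p under 0.05, and the share called over all tested genes was 0%. At an unadjusted p under 0.05, 1 member of 42 passed, or 2.38%, where 247 genes, or 1.31%, passed over the whole table. In DESeq2, 0 of 74 members were called and 0 passed an unadjusted p of 0.05, where 2 and 258 of 33171 genes did so. In limma-voom 0 of 42 were called and 1 passed unadjusted, where 0 and 260 of 18820 genes did so. That member was HIST1H1T in limma-voom and HIST1H2AM in edgeR, so no member passed in both. In edgeR without the count filter, 0 of 74 members were called and 3 passed unadjusted, HIST2H2AA4, HIST1H4A and HIST1H2AM. Of 33171 genes in that fit, 61 were called and 903 passed unadjusted. HIST1H4A rests on 0 counts in every Zelnorm tumour, against 1, 3 and 2 counts in control tumours. Lack of a call does not show that levels were equal. The SE of the log2 ratio was 0.11 to 0.23 for the members named as the highest of the H2A, H2B, H3 and H4 classes, and 0.33 to 0.55 for the tested members under 1 CPM.

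Of the tested members, 27 had a higher fitted level in Zelnorm tumours and 15 a lower one, which is 64.3% higher, where 49.1% of all tested genes were higher. The median log2 ratio of Zelnorm over control was 0.09 for the members and -0.0024 for all tested genes, and single members ran from -1.28 to 0.98. By class the median was -0.06 for H1, 0.10 for H2A, 0.16 for H2B, -0.0054 for H3 and 0.10 for H4. H2B had the most one-way count, with 13 of 15 tested members higher in Zelnorm tumours, none of which passed the test. The 13 include HIST2H2BD and HIST2H2BA, symbols that nomenclature lists as pseudogenes. Values that were not whole occurred in 13 of the 15 tested H2B members, so these rows may not be separate measurements. HIST2H3A and HIST2H3C, whose values were identical, are counted separately among the 27. The median of 0.09 was smaller than the SD of the member score between tumours of a group, 0.16, and leaving out MBZ_257 took the median over all members to -0.04.

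**Figure D2:**
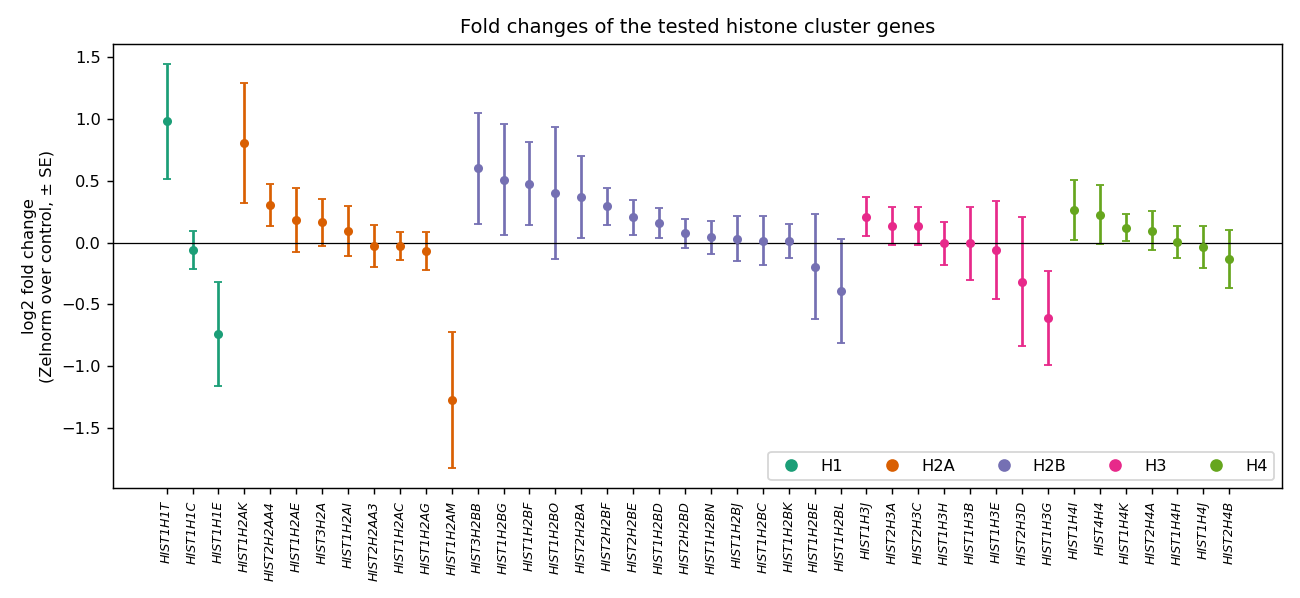
Log2 ratio of Zelnorm over control with its standard error for the tested members, grouped by histone class, from the edgeR fit. Most points lie within 0.3 of 0, and the widest bars belong to members under 1 CPM such as HIST1H2AM at -1.28 and HIST1H1T at 0.98.

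In 4 of the 42 tested members, or 9.52%, the 3 Zelnorm tumours lay on one side of the 3 control tumours, where 4.82% of all tested genes did so. HIST1H1T, HIST1H2AE and HIST1H4K lay above in Zelnorm tumours and HIST1H1E lay below. HIST1H2AE had 1.55, 1.39 and 1.36 CPM in Zelnorm tumours, against 1.25, 1.35 and 1.18 CPM in control tumours, so MBZ_259 and NC4 nearly touched. It is named for this count and not for its p.

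The order of the tumours did not follow the groups. MBZ_257 held the highest level of the 6 tumours in 18 of 42 tested members, or 42.9%, and the lowest in 0. Among the 30 members of at least 1 CPM it was highest in 16. Over all tested genes it was highest in 17.5% and lowest in 17.6%. MBZ_254, from the same group, was lowest in 14 members, or 33.3%, against 17.1% of all tested genes. It was highest in 2, or 4.76%, against 16.5% of all tested genes. MBZ_259 was highest in 9, or 21.4%, and lowest in 5, or 11.9%, against 14.2% and 14.0% of all tested genes. Among control tumours, NC10 was highest in 2 members, or 4.76%, and lowest in 6, or 14.3%, against 13.8% and 14.5% of all tested genes. NC4 was highest in 6, or 14.3%, and lowest in 8, or 19.0%, against 24.7% and 24.5% of all tested genes. NC9 was highest in 5, or 11.9%, and lowest in 9, or 21.4%, against 13.3% and 12.2% of all tested genes. HIST2H3A and HIST2H3C, whose values were identical, enter these counts as 2 members.

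The same tumours stood at the ends of a score, the log2 CPM of a gene less its own mean over the 6 tumours, averaged over tested members. It was -0.18, 0.26 and 0.0054 in Zelnorm tumours MBZ_254, MBZ_257 and MBZ_259, and -0.09, 0.02 and -0.0055 in control tumours NC10, NC4 and NC9. Both extremes were Zelnorm tumours, and the 3 control tumours lay between them. The median absolute log2 difference between a pair of tumours was 0.18 to 0.38 over tested members and 0.15 to 0.29 over all tested genes. For members it was widest between MBZ_254 and MBZ_257, a pair within the Zelnorm group.

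**Figure D3:**
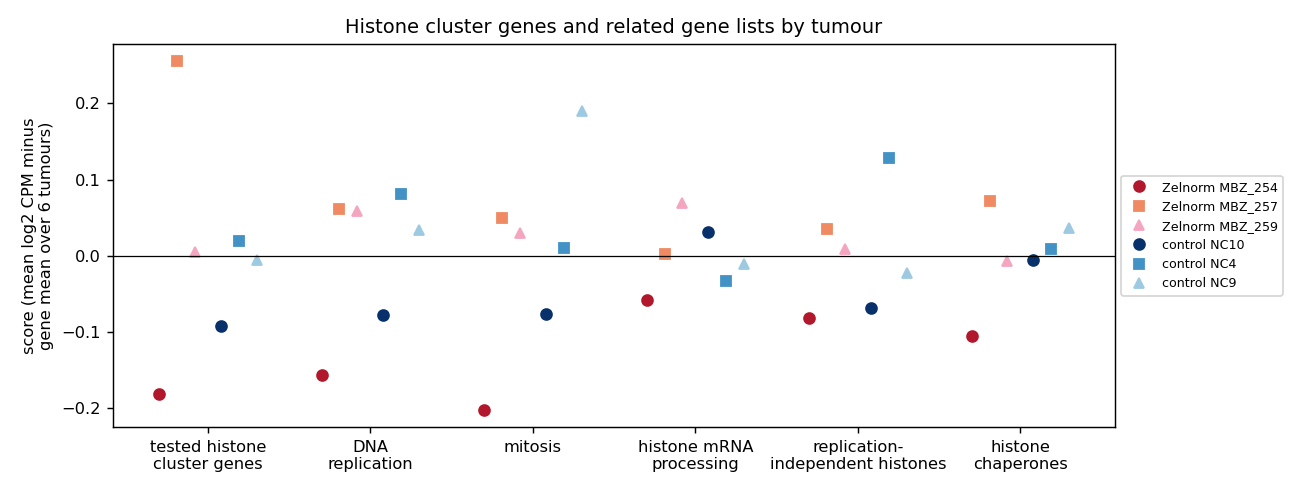
Score of each gene list in each tumour, the mean log2 CPM relative to each gene's mean over the 6 tumours, with Zelnorm tumours left of control tumours. The histone members reach 0.26 in MBZ_257 and -0.18 in MBZ_254, with the control tumours between -0.09 and 0.02.

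The 5 classes kept much the same proportions in every tumour. H2B held 37.9% ± 2.10 of member counts in Zelnorm tumours and 37.0% ± 0.702 in control tumours, and H2A held 27.5% ± 0.738 in Zelnorm tumours and 27.8% ± 0.767 in control tumours (SD, n = 3 each). H4 held 22.1% ± 0.590 in Zelnorm tumours and 22.1% ± 0.517 in control tumours. H1 held 7.84% ± 0.944 in Zelnorm tumours and 8.51% ± 0.747 in control tumours, and H3 held 4.65% ± 0.282 in Zelnorm tumours and 4.59% ± 0.112 in control tumours. These shares are of counts and are not corrected for transcript length, so they do not rank the classes by molecules. The H2B share was highest in MBZ_259, at 40.3%, where the H1 share was lowest, at 6.75%.

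**Figure D4:**
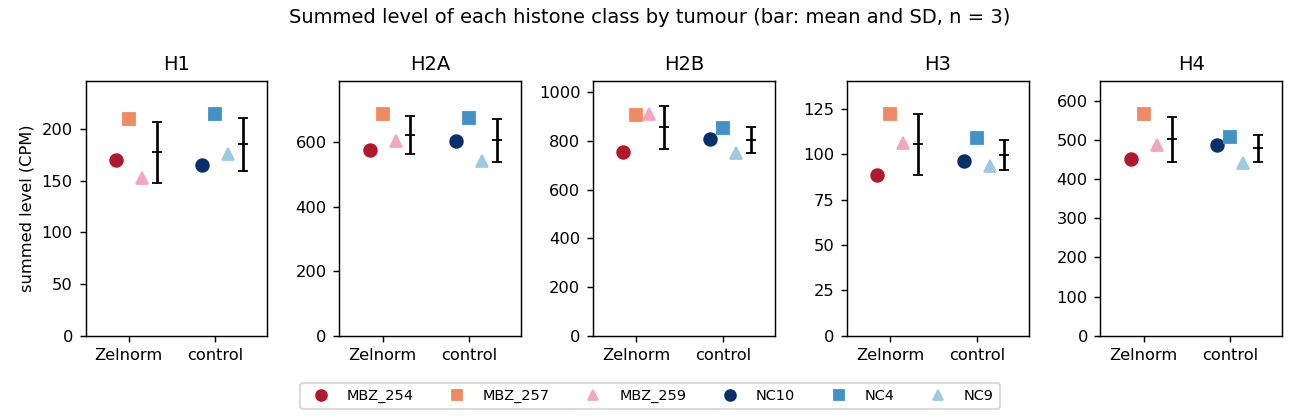
Summed CPM of each histone class in each tumour, with a point per tumour, the group mean and SD, and Zelnorm tumours left of control tumours. In every class the groups overlap, with means of 857 and 805 CPM for H2B and 178 and 185 CPM for H1 in Zelnorm and control tumours.

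Linker histone H1 transcripts came almost entirely from 1 gene. The H1 sum was 170.2, 210.0 and 152.8 CPM in Zelnorm tumours, against 165.7, 214.4 and 176.1 CPM in control tumours, and HIST1H1C alone gave 169, 208 and 151 CPM in Zelnorm tumours, against 164, 212 and 174 CPM in control tumours. HIST1H1C was highest in NC4 and lowest in MBZ_259, and its log2 ratio was -0.06 with an SE of 0.15. It is a member known to give polyadenylated transcripts. The other 5 members of the class stayed at or below 1.31 CPM in every tumour.

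HIST1H1E, another somatic linker histone gene, had 0.325, 1.20 and 0.664 CPM in Zelnorm tumours, against 1.21, 1.31 and 1.20 CPM in control tumours. MBZ_257 lay below NC9 by less than the rounding of these values, so the groups barely separate. The log2 ratio was -0.74 with an SE of 0.42 and an unadjusted edgeR p of 0.111 (adjusted p 1.00). The counts behind it were 8, 39 and 24 in Zelnorm tumours, against 32, 34 and 48 in control tumours.

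HIST1H1T, the linker histone of the testis, had 0.488, 0.525 and 0.637 CPM in Zelnorm tumours, against 0.190, 0.464 and 0.201 CPM in control tumours. All 3 Zelnorm tumours were above all control tumours, with NC4 close beneath MBZ_254. The log2 ratio was 0.98 with an SE of 0.46 and an unadjusted edgeR p of 0.0608. It rests on 12, 17 and 23 counts in Zelnorm tumours, against 5, 12 and 8 counts in control tumours. HIST1H1B, also a somatic linker histone gene, was too low to test, with 4, 4 and 17 counts in Zelnorm tumours, against 4, 11 and 10 counts in control tumours.

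The H2A class summed to 575.1, 687.2 and 604.6 CPM in Zelnorm tumours, against 604.1, 674.3 and 541.0 CPM in control tumours. Its mean was 622 ± 58.1 CPM in Zelnorm tumours and 606 ± 66.7 CPM in control tumours (SD, n = 3 each). HIST1H2AC, a member known to give polyadenylated transcripts, had 268, 280 and 268 CPM in Zelnorm tumours, against 301, 281 and 250 CPM in control tumours. The control tumours lay on both sides of the Zelnorm tumours, and the log2 ratio was -0.03 with an SE of 0.11. HIST1H2AG had 12.6, 16.7 and 13.6 CPM in Zelnorm tumours, against 15.3, 14.8 and 14.96 CPM in control tumours. Its control tumours were tightly grouped inside the wider range of the Zelnorm tumours.

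HIST2H2AA3 and HIST2H2AA4 are a near-identical pair in cluster 2, so how reads were split between them is uncertain. HIST2H2AA3 had 170, 207 and 197 CPM in Zelnorm tumours, against 176, 248 and 159 CPM in control tumours. HIST2H2AA4 had 106, 160 and 107 CPM in Zelnorm tumours, against 92.3, 111 and 98.5 CPM in control tumours, with MBZ_257 far above the rest. Its log2 ratio of 0.31 had an SE of 0.17 and an unadjusted edgeR p of 0.101, and NC4 lay above MBZ_254 and MBZ_259. Without MBZ_257 the ratio was 0.08.

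The pair sum had a mean of 315 ± 46.7 CPM in Zelnorm tumours and 295 ± 55.5 CPM in control tumours (SD, n = 3 each). HIST2H2AA4 took 38.3%, 43.6% and 35.2% of the pair in Zelnorm tumours, against 34.4%, 30.8% and 38.2% in control tumours. MBZ_257 had the highest share and NC4 the lowest, and the groups overlapped.

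HIST1H2AM was the only tested member with an unadjusted edgeR p under 0.05. It had 0.152, 0.361 and 0.218 CPM in Zelnorm tumours, against 0.906, 0.721 and 0.272 CPM in control tumours. NC10 and NC4 were high and NC9 lay below MBZ_257, so the groups overlapped. The log2 ratio was -1.28 with an SE of 0.55, an unadjusted p of 0.0430 and an adjusted p of 1.00. The estimated counts were 3.73, 11.7 and 7.86 in Zelnorm tumours, against 23.9, 18.7 and 10.8 in control tumours.

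HIST1H2AK had 0.393, 0.959 and 0.409 CPM in Zelnorm tumours, against 0.225, 0.365 and 0.436 CPM in control tumours, with a log2 ratio of 0.80, an SE of 0.48 and an unadjusted edgeR p of 0.128. MBZ_257 stood above the other 5 tumours, and without it the ratio was 0.27. HIST1H2AK and HIST1H2AI code for the same protein, as do HIST1H2AG and HIST1H2AM. HIST1H2AK and HIST1H2AI alone summed to 8.81, 13.3 and 8.63 CPM in Zelnorm tumours, against 9.80, 8.19 and 10.2 CPM in control tumours. HIST1H2AG and HIST1H2AM are not in this sum. HIST3H2A, the highest member of cluster 3, had 6.80, 7.77 and 8.44 CPM in Zelnorm tumours, against 6.40, 8.35 and 5.82 CPM in control tumours, and NC4 lay inside the range of the Zelnorm tumours.

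The H2B class had the largest sum of counts, with 753.3, 906.1 and 910.5 CPM in Zelnorm tumours, against 807.8, 855.7 and 750.7 CPM in control tumours. The mean was 857 ± 89.5 CPM in Zelnorm tumours and 805 ± 52.5 CPM in control tumours (SD, n = 3 each), with MBZ_257 and MBZ_259 high and MBZ_254 next to NC9 at the bottom. HIST1H2BK had 270, 333 and 324 CPM in Zelnorm tumours, against 291, 352 and 277 CPM in control tumours. Its log2 ratio was 0.01 with an SE of 0.14 under TMM scaling and -0.0042 when library totals were used without a TMM factor.

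HIST2H2BE had 132, 168 and 180 CPM in Zelnorm tumours, against 146, 148 and 123 CPM in control tumours. MBZ_257 and MBZ_259 were above every control tumour and MBZ_254 was below NC10 and NC4. The log2 ratio was 0.20 with an SE of 0.14 and an unadjusted edgeR p of 0.180. HIST1H2BD had 135, 122 and 139 CPM in Zelnorm tumours, against 122, 129 and 104 CPM in control tumours, with NC4 above MBZ_257. Both genes are known to give polyadenylated transcripts.

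HIST2H2BF had 28.9, 36.1 and 40.0 CPM in Zelnorm tumours, against 31.2, 26.0 and 28.4 CPM in control tumours. MBZ_254 lay below NC10, so the groups overlapped, and the log2 ratio of 0.29 had an SE of 0.15 and an unadjusted edgeR p of 0.0748. HIST2H2BD, a cluster 2 symbol that nomenclature lists as a pseudogene, had 88.1, 100 and 111 CPM in Zelnorm tumours, against 97.4, 96.2 and 89.9 CPM in control tumours. HIST2H2BA, HIST2H2BB and HIST3H2BA are also listed as pseudogenes. Without these 4 symbols the H2B sum was 755 ± 79.0 CPM in Zelnorm tumours and 709 ± 49.4 CPM in control tumours (SD, n = 3 each). HIST1H2BL, among the lower members, had 0.651, 0.525 and 0.321 CPM in Zelnorm tumours, against 0.417, 0.863 and 0.679 CPM in control tumours.

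The H3 class was low in counts, with a sum of 88.6, 122.2 and 106.1 CPM in Zelnorm tumours, against 96.6, 109.2 and 93.8 CPM in control tumours. The mean was 106 ± 16.8 CPM in Zelnorm tumours and 99.9 ± 8.22 CPM in control tumours (SD, n = 3 each). HIST1H3H had 24.4, 39.5 and 27.8 CPM in Zelnorm tumours, against 30.9, 31.3 and 29.8 CPM in control tumours. As with HIST1H2AG, the control tumours lay close together while MBZ_254 and MBZ_257 formed the ends of the range. HIST1H3J had 11.2, 12.4 and 10.9 CPM in Zelnorm tumours, against 11.2, 8.86 and 9.80 CPM in control tumours, with a log2 ratio of 0.21 and an SE of 0.16.

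HIST2H3A and HIST2H3C had identical values in all 6 libraries, 24.2, 30.7 and 30.3 CPM in Zelnorm tumours, against 24.3, 30.1 and 23.3 CPM in control tumours. Their log2 ratio of 0.14 is 1 measurement written in 2 rows. It was the only such pair among members with at least 30 counts. HIST2H3D, from the same cluster, had 0.172, 0.498 and 0.309 CPM in Zelnorm tumours, against 0.283, 0.636 and 0.346 CPM in control tumours. HIST1H3G had 0.447, 0.649 and 1.19 CPM in Zelnorm tumours, against 1.10, 1.20 and 1.25 CPM in control tumours, with MBZ_259 inside the control range. Its log2 ratio was -0.61 with an SE of 0.38 and an unadjusted edgeR p of 0.141.

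The H4 class summed to 451.8, 566.6 and 487.5 CPM in Zelnorm tumours, against 488.4, 509.3 and 441.3 CPM in control tumours. The mean was 502 ± 58.7 CPM in Zelnorm tumours and 480 ± 34.9 CPM in control tumours (SD, n = 3 each). HIST2H4A, the highest member of cluster 2, had 185, 273 and 236 CPM in Zelnorm tumours, against 220, 241 and 188 CPM in control tumours. MBZ_254 was its lowest tumour and MBZ_257 its highest, and the log2 ratio was 0.10 with an SE of 0.16.

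HIST2H4B, the near-identical copy of HIST2H4A, had 38.4, 27.9 and 23.0 CPM in Zelnorm tumours, against 22.7, 34.8 and 40.3 CPM in control tumours. It took 17.2%, 9.26% and 8.89% of the pair in Zelnorm tumours, against 9.37%, 12.6% and 17.6% in control tumours. MBZ_254 and NC9, one from each group, were high in HIST2H4B and low in HIST2H4A. Summed, the pair had 261 ± 39.0 CPM in Zelnorm tumours and 249 ± 24.4 CPM in control tumours (SD, n = 3 each).

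HIST1H4K had 112, 117 and 115 CPM in Zelnorm tumours, against 110, 112 and 95.1 CPM in control tumours. Every Zelnorm tumour was above every control tumour, with MBZ_254 only just above NC4, and the log2 ratio of 0.12 had an SE of 0.11 and an unadjusted edgeR p of 0.302. HIST1H4H had 87.3, 112 and 87.3 CPM in Zelnorm tumours, against 102, 95.3 and 87.8 CPM in control tumours. HIST4H4, the single member of cluster 4, had 2.64, 3.83 and 2.82 CPM in Zelnorm tumours, against 2.28, 2.67 and 2.99 CPM in control tumours, with NC9 above MBZ_254 and MBZ_259.

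By cluster, the 68 members of cluster 1 summed to 1322 ± 109 CPM in Zelnorm tumours and 1306 ± 84.3 CPM in control tumours (SD, n = 3 each). The 16 members of cluster 2 summed to 930 ± 121 CPM in Zelnorm tumours and 860 ± 97.9 CPM in control tumours. The 4 members of cluster 3 summed to 8.66 ± 1.34 CPM in Zelnorm tumours and 7.57 ± 1.11 CPM in control tumours. In each cluster the difference of the means was smaller than the SD of the Zelnorm tumours.

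The 7 members listed as known to give polyadenylated transcripts held nearly as many counts as the other 82 members together. They summed to 1020, 1182 and 1116 CPM in Zelnorm tumours, against 1082, 1168 and 991 CPM in control tumours. The other 82 summed to 1019, 1310 and 1146 CPM in Zelnorm tumours, against 1081, 1195 and 1011 CPM in control tumours. Between MBZ_254 and MBZ_257 the other 82 moved more than the 7. MBZ_257 was highest in 1 of the 7, or 14.3%, and in 17 of the 35 other tested members, or 48.6%, against 17.5% of all tested genes. Averaged as a score, the 7 were nevertheless highest in MBZ_257, at 0.15, with MBZ_259 and NC4 next, each at 0.06. Whether the other 82 lacked poly(A) tails was not measured, so this split does not separate polyadenylated from stem-loop RNA.

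Estimated counts of many members were not whole. At least 1 value was not whole in 39 of 89 members and in 31 of the 42 tested members, or 73.8%, against 61.3% of all tested genes. By class this held for 0 of 3 tested H1 members, 8 of 9 for H2A, 13 of 15 for H2B, 5 of 8 for H3 and 5 of 7 for H4. Programs that share reads among similar rows give such values, and a single row is then less certain than the sum over similar rows. The labels do not state whether reads were shared in this way.

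No gene that acts on histone mRNA was called. Of the 22 names listed for histone mRNA processing, 21 were tested, 10 higher and 11 lower in Zelnorm tumours, with 0 called and a median log2 ratio of -0.01. SLBP, which binds the stem-loop, had 88.8, 96.1 and 113 CPM in Zelnorm tumours, against 97.0, 116 and 102 CPM in control tumours. Its log2 ratio was -0.08 with an SE of 0.13. CPSF2, a part of the machinery that cuts the mRNA end, had 138 ± 6.87 CPM in Zelnorm tumours and 137 ± 20.4 CPM in control tumours, and UPF1, which acts in histone mRNA decay, had 129 ± 12.6 CPM in Zelnorm tumours and 137 ± 26.6 CPM in control tumours (SD, n = 3 each). ZNF473, a partner of the snRNP that processes the mRNA end, had the smallest p of the list, with a log2 ratio of 0.26, an SE of 0.16 and an unadjusted edgeR p of 0.132.

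The 12 histone genes outside the clusters gave 3 higher and 9 lower in Zelnorm tumours, with 0 called and a median log2 ratio of -0.02. H3F3B, which codes for a replacement H3, had 375 ± 31.5 CPM in Zelnorm tumours and 392 ± 22.2 CPM in control tumours, and the linker histone gene H1F0 had 378 ± 45.5 CPM in Zelnorm tumours and 382 ± 47.8 CPM in control tumours (SD, n = 3 each). H1FX, another linker histone gene, had 77.9, 85.9 and 84.3 CPM in Zelnorm tumours, against 96.8, 136 and 92.0 CPM in control tumours. All 3 Zelnorm tumours were below all control tumours, with NC4 the highest. Its log2 ratio of -0.39 had an SE of 0.15 and an unadjusted edgeR p of 0.0307, and its adjusted p of 1.00 did not pass.

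Genes listed as histone chaperones, many of which hand histones to DNA, gave 6 higher and 9 lower of 15 in Zelnorm tumours. Of these 0 were called, and the median log2 ratio was -0.02. NAP1L1 had 330 ± 18.4 CPM in Zelnorm tumours and 334 ± 39.5 CPM in control tumours, and ANP32E had 303 ± 17.3 CPM in Zelnorm tumours and 315 ± 53.4 CPM in control tumours (SD, n = 3 each). CHAF1B, a subunit of the chaperone that works at the replication fork, had the smallest p of the list, with a log2 ratio of -0.19 and an SE of 0.16. Scores of the chaperone list were -0.11, 0.07 and -0.0067 in Zelnorm tumours, against -0.0059, 0.0087 and 0.04 in control tumours. MBZ_254 was lowest and MBZ_257 highest, as for the histone members, over a narrower range.

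Genes of DNA replication, the process that histone synthesis accompanies, gave 12 higher and 24 lower of 36 in Zelnorm tumours, with 0 called and a median log2 ratio of -0.03. The replicative helicase genes MCM4 and MCM3 had log2 ratios of 0.0057 and -0.02, and POLA1, a subunit of the polymerase that starts DNA strands, had the smallest p of the list with a log2 ratio of -0.13 and an SE of 0.14. The list score was -0.16, 0.06 and 0.06 in Zelnorm tumours, against -0.08, 0.08 and 0.03 in control tumours. MBZ_254 was thus the lowest tumour for this list as for the histone members, while MBZ_257 did not stand apart in it. Relative to this list, the histone sum had a log2 ratio of 0.07.

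Mitosis genes gave 2 higher and 21 lower of 23 in Zelnorm tumours, with 0 called and a median log2 ratio of -0.09. TOP2A, which untangles DNA, had a log2 ratio of -0.11, the proliferation marker MKI67 had -0.10, and the kinetochore gene CENPF, with the smallest p of the list, had -0.28 with an SE of 0.19. The list score was -0.20, 0.05 and 0.03 in Zelnorm tumours, against -0.08, 0.01 and 0.19 in control tumours, so it was highest in NC9, where the histone score was -0.0055. In both lists MBZ_254 had the lowest score, as it had for the histone members. It was also lowest for histone mRNA processing, at -0.06, histone genes outside the clusters, at -0.08, and chaperones, at -0.11. A low MBZ_254 was thus not particular to replication and mitosis. The part of any of these lists in the histone values was not tested.

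Other RNAs that lack a poly(A) tail were low in all 6 libraries, and the reason for this was not tested. Of 34 names, 4 were high enough to test, 1 higher and 3 lower in Zelnorm tumours, with 0 called and a median log2 ratio of -0.30. Their summed level was 40.1, 43.9 and 61.02 CPM in Zelnorm tumours, against 39.9, 75.9 and 62.1 CPM in control tumours. Most of it came from RN7SL2 and RN7SL1, RNAs of the signal recognition particle, with 25.7 ± 5.54 and 17.9 ± 4.73 CPM in Zelnorm tumours and 32.1 ± 10.4 and 21.8 ± 6.78 CPM in control tumours (SD, n = 3 each). MBZ_257, the tumour with the most histone RNA, was among the lower tumours in this sum, and NC4 was the highest.

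The mouse table, meant for host cells, was read beside these values because histone coding sequences are much alike in both species. Its 70 rows with Hist symbols, all found in the GENCODE vM21 annotation of GRCm38, held 4157, 6893 and 7221 counts in Zelnorm tumours, against 4455, 5377 and 7126 counts in control tumours. For every 100 human member counts there were 8.29, 8.54 and 8.84 mouse counts in Zelnorm tumours, against 7.82, 8.79 and 8.93 in control tumours. Over all named genes, the mouse table held 30.5, 17.8 and 24.5 counts per 100 human counts in Zelnorm tumours, against 23.8, 28.7 and 23.5 in control tumours. The ratio of mouse to human histone counts was thus nearly the same in all tumours, also in MBZ_257, which had the least mouse RNA, at 15.1% of the counts of both tables, and in MBZ_254, which had the most, at 23.4%. Per 1000000 mouse counts, the mouse Hist rows took 556, 1189 and 801 in Zelnorm tumours, against 726, 706 and 776 in control tumours.

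The ratio was steadiest for H2B and varied most for H1. H2B held 79.6% of the mouse Hist counts. Mouse H2B counts per 100 human H2B counts were 17.3, 18.8 and 17.5 in Zelnorm tumours, against 17.1, 18.8 and 19.3 in control tumours, so the highest tumour exceeded the lowest by a factor of 1.13. Per 1000000 mouse counts, mouse H2B spread by a factor of 2.22 between tumours.

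Mouse H1 counts per 100 human H1 counts were 4.25, 1.21 and 2.52 in Zelnorm tumours, against 3.05, 4.13 and 2.00 in control tumours, a factor of 3.53. For H2A, H3 and H4 the factor was 1.39, 1.37 and 1.63. MBZ_257, lowest in mouse RNA, was lowest in the H1 ratio, and MBZ_254 and NC4, highest in mouse RNA, were highest in the H1 ratio. The lead mouse row was Hist1h2bc, an H2B gene on the plus strand of mouse chromosome 13 at 23684199 to 23692908 (GRCm38). It had 1311, 2048 and 2119 counts in Zelnorm tumours, against 1442, 1626 and 2275 in control tumours. The labels do not state how a read was placed in one table or the other. The part that reads placed in the other species' table have in the human values was not tested.

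**Figure D5:**
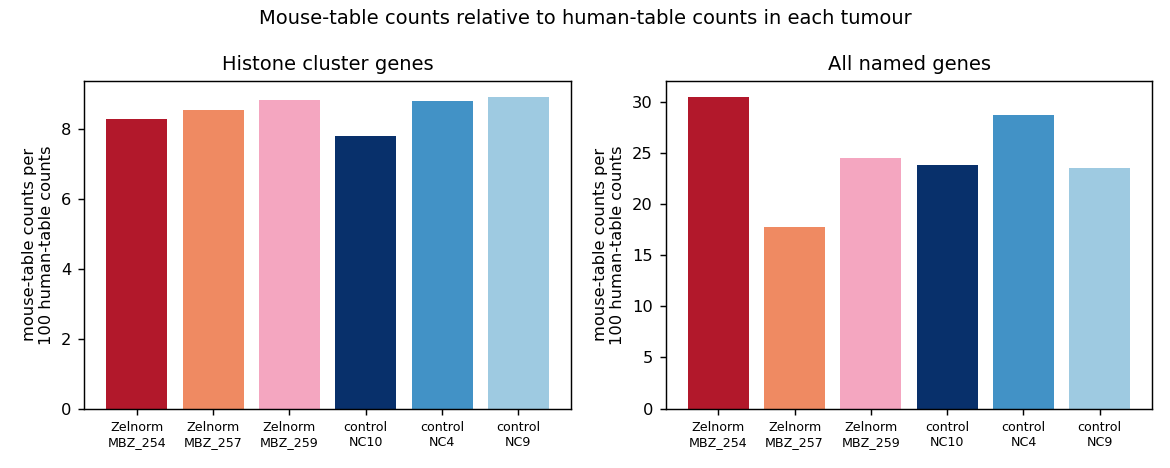
Mouse counts per 100 human counts in each tumour, for histone cluster genes and for all named genes, with Zelnorm tumours left of control tumours. The histone ratio stays between 7.82 and 8.93 while the ratio over all genes runs from 17.8 to 30.5.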

How the data were processed

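RNA of 3 Zelnorm and 3 control tumours was read in 2 tables of estimated counts per gene, one human and one mouse, as the authors deposited them. HISAT2, StringTie, DESeq2, edgeR, GRCh38 and GRCm38 are named in the submitters' processing notes, with no versions or roles. Among human values above 0, 37.9% were not whole (tolerance 1e-06). Whole counts had been assumed in planning, so the estimated counts were rounded first. Column names carry the group but no replicate number of the labels, so libraries are named by column. Rows with no gene name, 574 human and 856 mouse rows, held 0.407% to 0.518% and 0.317% to 0.468% of counts and stayed out of totals and tests.

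All human genes that passed filterByExpr were fitted in edgeR 4.0.16 (R 4.3.3) with TMM scaling and the two-sided quasi-likelihood test. P-values were adjusted over all tested genes (Benjamini-Hochberg), with 0.05 as the threshold. The SE of a log2 ratio was derived from the F statistic. CPM are counts scaled to 1000000, with the total of the tested genes times its TMM factor as library size. Sums are descriptions with no test. Scores use log2 CPM with a prior count of 2. Human gene lengths were not used, so shares of counts and the choice of the highest members reflect counts, not molecules. The procedure was tested on simulated counts with known changes. Those changes were larger than most differences reported here and left out genes of the lowest counts. The simulation therefore does not show whether small changes, or changes in such genes, would be found. Mouse coordinates come from GENCODE vM21.

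Members named are the 4 with the highest mean CPM of each class, the 5 tested members with the smallest p in each direction, every called member, HIST4H4, the highest members of clusters 2 and 3, and near-identical copies. For each other list they are the 2 genes with the highest mean CPM and the one with the smallest p. SLBP, HIST1H2AE, HIST1H4A and HIST1H4C were chosen after their values were seen. The members, the lists and the tests were chosen with earlier results of these data known. Alternatives were DESeq2 1.42.0, limma-voom (limma 3.58.1), library totals without TMM, no count filter, a stricter filter and leaving out each library.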

Additional observations from a re-analysis of the deposited data

How the results depend on the processing

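Over the whole human table, edgeR called 0 genes, against 2 in DESeq2 and 61 in edgeR without a count filter; 0 histone members were called under any alternative. The cause was not tested. For the 27 named members, 292 of 316 alternative values kept their direction and call and 24 reversed in sign, with 0 newly called and a smallest adjusted p of 0.998. Library totals without a TMM factor gave -0.0042 for HIST1H2BK and -0.012 for HIST1H4H, and no count filter gave 0.0040 for HIST1H3H. With each library left out in turn, the log2 ratio ran from -0.20 to 0.058 for HIST1H1C, -0.093 to 0.036 for HIST1H2AC, -0.20 to 0.014 for HIST1H2AG, -0.051 to 0.12 for HIST1H2BK, -0.23 to 0.13 for HIST1H3H, -0.12 to 0.068 for HIST1H4H, -0.15 to 0.19 for HIST2H2AA3, -0.0027 to 0.16 for HIST2H2BD, -0.54 to 0.064 for HIST2H3D, -0.039 to 0.24 for HIST2H4A and -0.36 to 0.055 for HIST2H4B. Without a change of sign, leaving out MBZ_257 gave 0.08 for HIST2H2AA4, 0.27 for HIST1H2AK and -1.28 for HIST1H1E, leaving out MBZ_259 gave -1.09 for HIST1H3G and -0.15 for HIST1H2BL, leaving out MBZ_254 gave -0.42 for HIST1H1E, -0.36 for HIST1H3G and 0.33 for HIST2H2BE, and leaving out NC4 gave 1.48 for HIST1H1T. The summed members ran from -0.015 without MBZ_257 to 0.13 without MBZ_254, and the median over tested members from -0.04 to 0.16; the median was 0.02 with no count filter. The H2B sum stayed higher in Zelnorm tumours in each such fit, at 0.04 to 0.18, and at 0.09 without the 4 pseudogene symbols, an alternative chosen after seeing the data. The sums of the other classes changed sign, from -0.19 to 0.04 for H1, -0.04 to 0.12 for H2A, -0.04 to 0.19 for H3 and -0.03 to 0.14 for H4; MBZ_257 turned H2A, H3 and H4, NC9 turned H2A, and MBZ_259 and NC4 turned H1. No paired analysis was possible because the table columns carry no replicate number of the labels. Members under 1 CPM rest on too few counts to show differences below their SE.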
